A study of Mus musculus with 16 samples.

Results

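Peaks of Bcl11a and Spi1 were examined at 9 genes of the Jak and Stat families: the kinase genes Jak1, Jak2 and Jak3 and the transcription factor genes Stat2, Stat3, Stat4, Stat5a, Stat5b and Stat6. A locus ran from 10 kb before to 10 kb after the mm10 gene body, and overlapping peaks of any of the 16 deposited lists were merged into regions. The 9 loci held 69 peaks in 23 merged regions, of 34234 merged regions in the whole series. Of the 23, 12 had a peak in at least 2 libraries and 11 in 1 library, and 2 lay within the loci of both Stat5a and Stat5b and were counted once. No region was shared with Stat3.

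The libraries were made by CUT&Tag, in which an antibody directs a transposase to the chromatin around a bound protein. The cells were MPP3 cells sorted from the bone marrow of mice. MPP3 cells are multipotent progenitors that favour the myeloid lineages. Bcl11a was profiled in WT-iMOS mice at T2 (3 libraries) and T1 (3 libraries). Spi1, which encodes PU.1, was profiled in KO-iMOS mice at T2 (2 libraries) and T1 (2 libraries) and in WT-iMOS mice at T2 (3 libraries) and T1 (3 libraries). Every title carries 3m. The labels do not say which gene the KO-iMOS mice lack, what iMOS, T1, T2 or 3m stand for, which strain was used, or whether replicates came from separate animals, so p-values measure the spread between libraries, which may be technical. The peak names inside the lists begin with PKO in KO-iMOS T2 but with PWT in KO-iMOS T1, and with BMG or PMG in WT-iMOS T2 and BWG or PWG in WT-iMOS T1. No label explains these letters, and a list whose peak names hold WT under a KO-iMOS label leaves that group's genotype less certain; groups follow the labels throughout, and the genotype comparison is given for T2 and T1 together and apart. Bcl11a was not profiled in KO-iMOS mice in the samples used here, so Spi1 peaks alone bear on the genotype. A list of peaks from many sorted cells cannot tell binding in more cells from more binding per cell.

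Jak kinases sit on the inner tails of cytokine receptors and phosphorylate each other and the receptor once a cytokine binds. Stat proteins dock there, are phosphorylated, pair up and enter the nucleus, where they bind DNA. In blood formation Jak2 serves the erythropoietin receptor, Jak1 serves the interferon and gp130 families, and Jak3 works with the common gamma chain. PU.1 is a master factor of myeloid and lymphoid commitment that binds purine-rich GGAA sites. Bcl11a is a zinc-finger factor best known as a repressor of fetal globin genes and as a factor needed for B cells.

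The lists differed in length, and this bears on every count below. They held 2719 to 7382 peaks for Bcl11a in WT-iMOS, 6372 to 20241 for Spi1 in KO-iMOS and 5068 to 12261 for Spi1 in WT-iMOS. The narrowest peak of a list spanned 196 to 225 bp for Bcl11a, 250 to 321 bp for Spi1 in KO-iMOS and 202 to 220 bp for Spi1 in WT-iMOS. The lists give no read counts, so sequencing depth is unknown. Bcl11a T1 replicate 3, the longest Bcl11a list, had a peak at 8 of the 9 loci, and 5 of these had Bcl11a in no other library. Stat5a and Stat5b, among the 5, held the same shared peak. Of all 21887 protein-coding loci, 7.51% had Bcl11a in that library and no other. The shortest of the 4 KO-iMOS lists, T2 replicate 2, had a peak at 2 members (Stat4 and Jak1). The 3 longer ones all had one at 7 members, Stat4 and Jak1 among them. At Stat3, Stat5b, Stat6, Jak2 and Jak3 the 3 longer lists had a peak and the shortest did not, as at 14.5% of all loci. At Stat4 and Jak1 all 4 lists had a peak, as at 22.3% of all loci. The median member locus spanned 72789 bp, against 37169 bp for all genes. Loci of the progenitor and myeloid marker list (9 genes, among them Kit, Mpo and Cebpa) carried peaks at 2 to 5 genes per Bcl11a library, 3 to 7 per Spi1 KO-iMOS library and 3 to 7 per Spi1 WT-iMOS library. The 8 lymphoid marker loci carried 1 to 2, 0 to 4 and 1 to 4 in the same order. The 8 erythroid and megakaryocyte loci carried 0 to 3, 2 to 5 and 1 to 4, and the 10 loci of other tissues carried 0 to 1, 0 to 4 and 0 to 1. Peaks do not report expression, and these counts check the labelled cells only loosely.

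Of the 23 regions, 7 overlapped a promoter window, the 300 bases from 250 before to 50 after a RefSeq start, and 6 of these were among the 12 regions in at least 2 libraries. Over the whole series, 24.3% of regions in at least 2 libraries overlapped such a window. The windows of Stat3, Jak1, Jak2 and Stat6 are shown because they carried promoter peaks in at least 4 libraries each. Sequences are 5′ to 3′ along the gene, from RefSeq on GRCm38.p6, and capitals mark the bases that every overlapping peak covered.
Stat3 promoter, minus strand: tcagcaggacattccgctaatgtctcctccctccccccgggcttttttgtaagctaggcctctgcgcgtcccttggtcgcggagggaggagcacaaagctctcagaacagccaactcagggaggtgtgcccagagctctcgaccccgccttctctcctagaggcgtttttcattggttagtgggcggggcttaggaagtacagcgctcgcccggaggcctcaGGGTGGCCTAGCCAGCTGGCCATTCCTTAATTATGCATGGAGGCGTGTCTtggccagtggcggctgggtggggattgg
Jak1 promoter, minus strand: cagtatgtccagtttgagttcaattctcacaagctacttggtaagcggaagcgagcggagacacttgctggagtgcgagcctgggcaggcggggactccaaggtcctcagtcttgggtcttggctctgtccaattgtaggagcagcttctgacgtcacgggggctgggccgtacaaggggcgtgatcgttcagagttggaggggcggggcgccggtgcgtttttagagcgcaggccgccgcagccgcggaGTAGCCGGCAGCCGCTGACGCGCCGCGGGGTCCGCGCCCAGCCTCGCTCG
Jak2 promoter, plus strand: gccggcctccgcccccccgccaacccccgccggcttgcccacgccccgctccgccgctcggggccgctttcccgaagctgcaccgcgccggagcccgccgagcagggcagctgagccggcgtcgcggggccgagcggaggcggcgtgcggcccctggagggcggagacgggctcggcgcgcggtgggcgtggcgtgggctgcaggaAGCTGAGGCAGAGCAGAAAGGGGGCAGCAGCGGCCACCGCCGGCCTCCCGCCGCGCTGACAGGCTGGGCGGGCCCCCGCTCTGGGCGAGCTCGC
Stat6 promoter, plus strand: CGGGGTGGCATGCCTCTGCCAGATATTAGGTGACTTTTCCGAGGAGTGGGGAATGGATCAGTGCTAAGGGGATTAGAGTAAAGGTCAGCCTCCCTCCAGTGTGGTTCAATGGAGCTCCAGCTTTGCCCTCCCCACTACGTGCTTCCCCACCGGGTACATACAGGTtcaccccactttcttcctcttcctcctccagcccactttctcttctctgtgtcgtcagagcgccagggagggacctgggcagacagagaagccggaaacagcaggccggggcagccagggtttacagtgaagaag

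The Stat3 window lies at chr11:100939491-100939790, and the bases shared by peaks of 13 libraries ran from position −28 to position 21 relative to the start. The Jak1 window lies at chr4:101265174-101265473, and within it 5 peaks shared the start itself and the 49 bases after it. The Jak2 window lies at chr19:29251553-29251852, and within it 4 peaks shared 94 bases from position −44 to 49. The Stat6 window lies at chr10:127642736-127643035, and within it 4 peaks shared 165 bases that ended at position −86. These last 3 shared stretches ran on past the window edge, to chr4:101265087 at Jak1, chr19:29251965 at Jak2 and chr10:127642669 at Stat6. Of these 4 genes, Stat6 was the one with shared bases wholly upstream of the start. The letter patterns searched on both strands of the 12 member windows were GAGGAA, the core of the Spi1 motif, TGACCA, a Bcl11a motif, and TTCNNNGAA, the Stat site. They occurred in 28.3%, 13.6% and 8.30% of all 32851 promoter windows. GAGGAA occurred in the Stat6 window on the opposite strand, as TTCCTC beginning at positions −72 and −66, just beyond the bases shared by its 4 peaks. It also occurred in 1 Stat5a window, at position −33 from the start at 100860484, and TGACCA occurred in the other Stat5a window, at position 15 from the start at 100859656. The windows of Stat3, Jak1, Jak2, Jak3, Stat2, Stat4 and Stat5b held none of these letter patterns, and no member window held TTCNNNGAA. A match is a description of the letters and not a binding site.

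**Figure D1:**
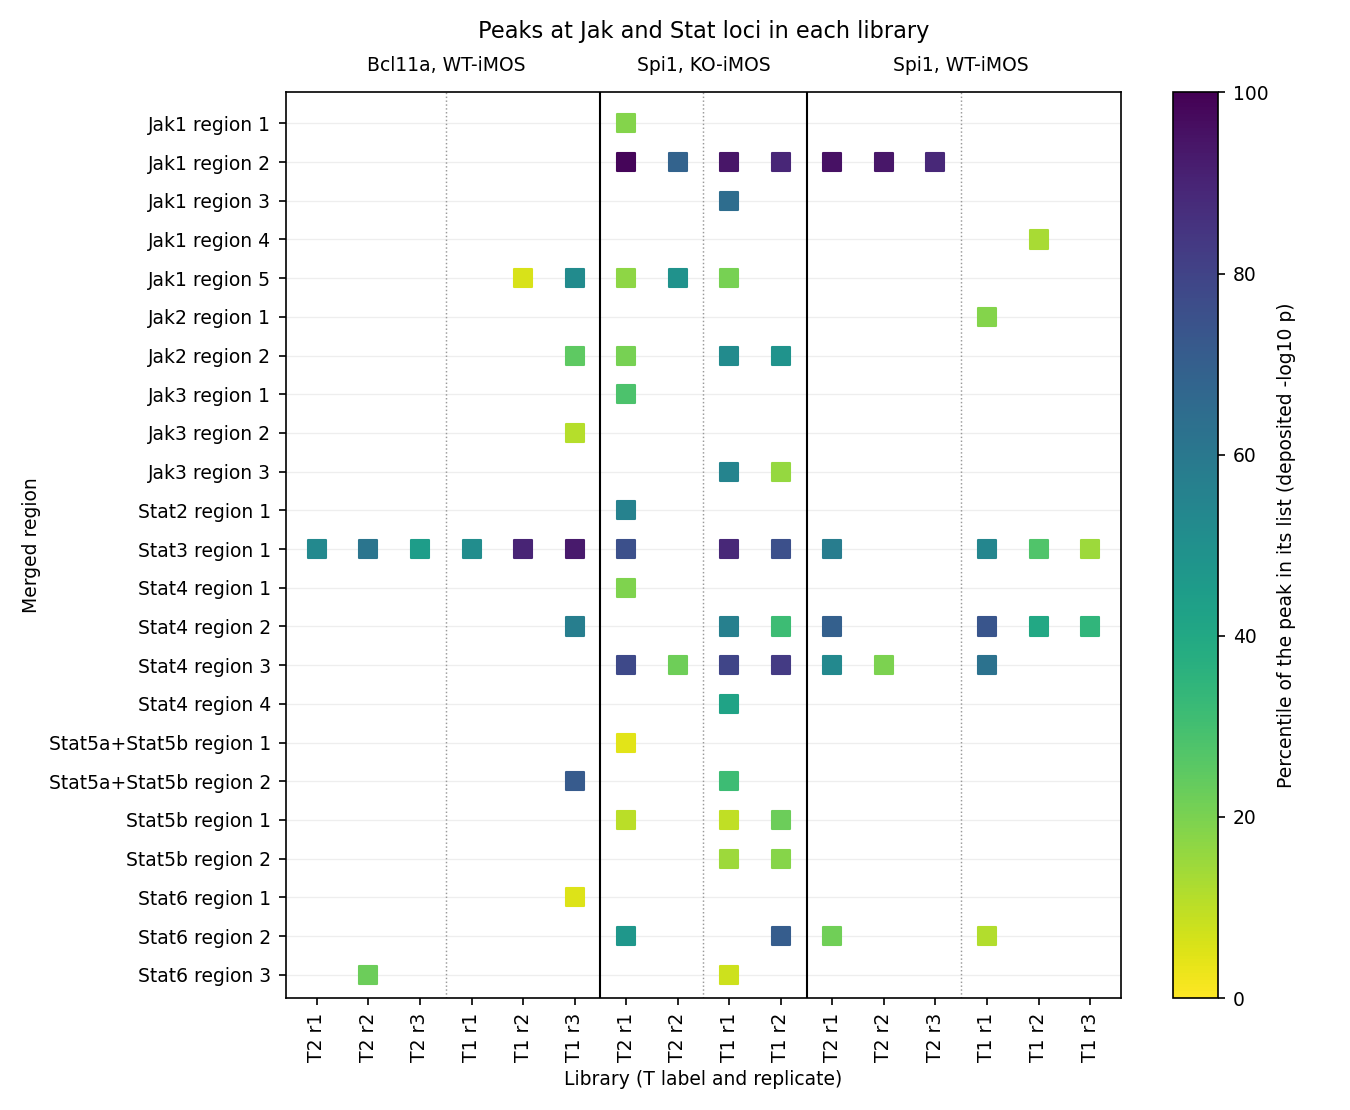
Each square marks a peak of 1 library (columns, grouped by target and genotype, T2 left of T1) in 1 of the 23 merged regions (rows), coloured by the percentile of the peak within its own list by deposited −log10 p. Stat3 region 1 has squares in all 6 Bcl11a libraries, and Jak1 region 2 has dark squares in all 4 Spi1 KO-iMOS and all 3 Spi1 WT-iMOS T2 libraries and none elsewhere.

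Over the 9 loci, Bcl11a had a peak in at least 1 WT-iMOS library at 8 members, Spi1 in at least 1 KO-iMOS library at 9 and Spi1 in at least 1 WT-iMOS library at 5. For all genes these shares were 39.5%, 60.2% and 44.9%. A peak in at least 2 libraries of the group was found at 3, 8 and 4 members in the same order, where all genes gave 25.3%, 49.8% and 33.5%. Every library of the group had a peak at Stat3 for Bcl11a, at Jak1 and Stat4 for Spi1 in KO-iMOS and at no member for Spi1 in WT-iMOS, where 10.4% of all loci did.

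Stat3, which relays interleukin 6 and granulocyte colony-stimulating factor signals in blood cells, had 1 merged region, chr11:100938972-100940036, over the 5′ boundary of the gene. The predicted gene Gm46295 overlaps it, so the peak cannot be given to Stat3 alone. All 6 Bcl11a libraries had a peak in it, as did 3 of 4 Spi1 libraries of KO-iMOS and 4 of 6 of WT-iMOS, 13 of 16 in all. A Bcl11a peak in every library was found at 3.54% of all loci. The Bcl11a summits lay 42, 164 and 19 bp after the RefSeq start at T2 and 542, 44 and 18 bp after it at T1. The Spi1 summits lay at positions −122 to 161 in KO-iMOS and −191 to 91 in WT-iMOS. The authors' fold enrichment over local background was 5.28, 5.88 and 5.07 at T2 and 4.11, 6.19 and 6.89 at T1 for Bcl11a. These peaks ranked between percentiles 44.5 and 93.1 of their lists by deposited −log10 p. The Spi1 peaks ranked between percentiles 75.6 and 88.8 in KO-iMOS and between percentiles 14.7 and 57.8 in WT-iMOS.

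Coverage was scaled for list length as base pairs of the locus under peaks per Mb covered by the whole list. At Stat3 it was 154, 298 and 236 bp per Mb in the Bcl11a T2 libraries and 400, 239 and 193 bp per Mb in the Bcl11a T1 libraries. The Spi1 WT-iMOS libraries had 74.9, 0 and 0 bp per Mb at T2 and 91.1, 101 and 91.9 bp per Mb at T1. Every Bcl11a library lay above every Spi1 WT-iMOS library on this scale. Groups separated in this direction at 0.722% of all loci. Unscaled, the Bcl11a peaks covered 272, 319 and 309 bp at T2 and 692, 606 and 632 bp at T1. Those of Spi1 in WT-iMOS covered 411, 0 and 0 bp at T2 and 440, 304 and 259 bp at T1, so unscaled values overlapped. The lists covered 1.07 to 3.27 Mb for Bcl11a and 1.93 to 5.49 Mb for Spi1 in WT-iMOS. For peaks of like width, a shorter list gives a larger scaled value. The means were 253 ± 86.7 bp per Mb for Bcl11a and 59.8 ± 47.0 bp per Mb for Spi1 (SD, n = 6 each), a difference of 194 bp per Mb. The exact permutation test, two-sided over 924 arrangements, gave p = 0.0022, the smallest it can give, and a Benjamini-Hochberg adjusted p of 0.0669 over all genes, which missed the threshold of 0.05. The adjusted p ran from 0.0739 to 1 over the alternatives. The difference was 164 to 214 bp per Mb when any 1 library was left out, 204 within T2 and 183 within T1. When every list was shortened to its 2605 strongest peaks, the length of the shortest, Stat3 kept Bcl11a in 6 of 6 libraries and Spi1 in 0 of 6 WT-iMOS libraries and 1 of 4 KO-iMOS libraries. This cut keeps a larger part of a short list. The Bcl11a peak at percentile 44.5 of its list was kept, and the Spi1 WT-iMOS peak at percentile 57.8 was not. At that length 0.297% of loci had a peak in every Bcl11a library and no Spi1 WT-iMOS library, and Fisher's exact test for the Stat3 locus gave an adjusted p of 0.12. As a merged region, with fewer regions tested, Stat3 region 1 passed at that length, with an adjusted p of 0.0235 by Fisher's exact test, as did 9.23% of the 5744 regions tested. In the full lists the same region had Bcl11a in 6 and Spi1 in 4 of the 6 WT-iMOS libraries of each target, with an adjusted p of 0.837.

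**Figure D2:**
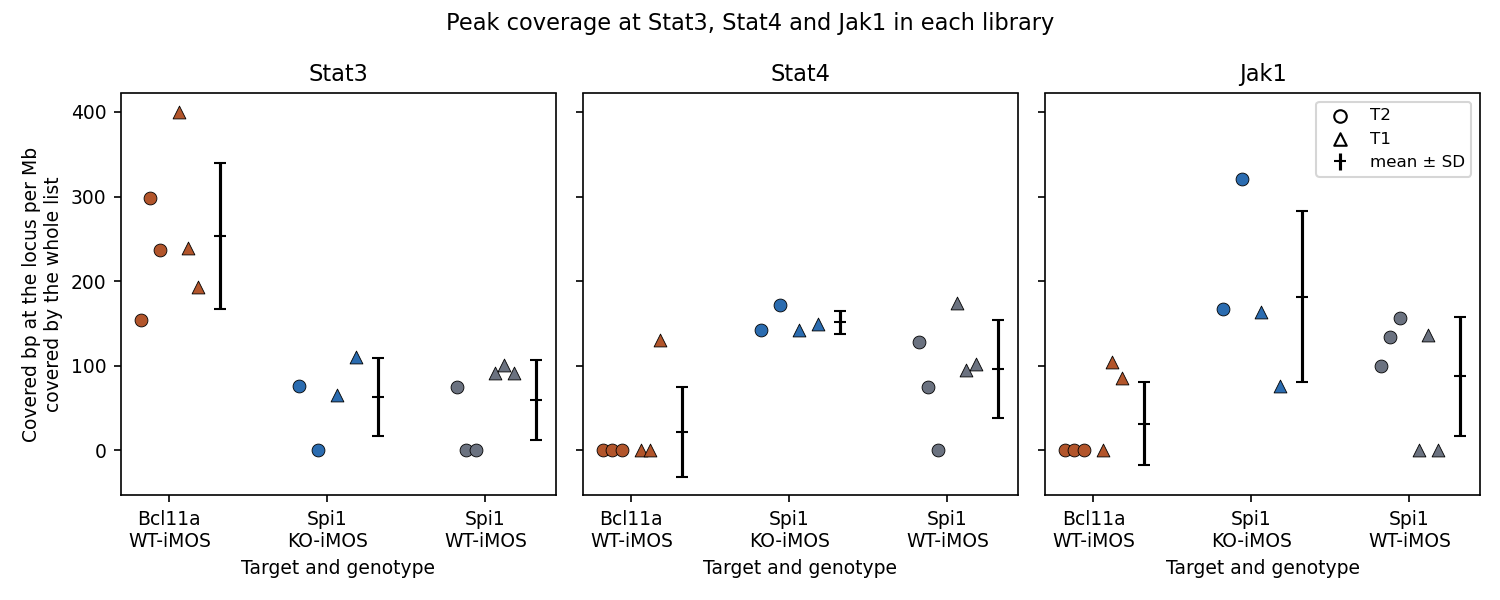
Base pairs under peaks at the locus per Mb covered by the whole list (y axis) for each library at Stat3, Stat4 and Jak1, by target and genotype (x axis), with circles for T2, triangles for T1 and bars for mean ± SD. The 6 Bcl11a libraries at Stat3 lie between 154 and 400 bp per Mb, above every Spi1 library, the highest of which is at 110 bp per Mb.

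Stat4, which relays interleukin 12 signals in T and natural killer cells, showed the opposite order, with a Bcl11a peak in 1 of 6 libraries and a Spi1 peak in 4 of 4 libraries of KO-iMOS and 5 of 6 of WT-iMOS. A Spi1 peak in every KO-iMOS library was found at 22.3% of loci. Its 2 regions with peaks in several libraries lay inside the gene and away from both RefSeq starts, and its other 2 regions had Spi1 in 1 KO-iMOS library each. Region 2, chr1:52010997-52011544, was centred 3030 bp downstream of the nearer start. It had Bcl11a in 1 library, Spi1 in 2 KO-iMOS libraries and Spi1 in 4 WT-iMOS libraries. Region 3, chr1:52022077-52022811, was centred 14204 bp downstream and had Spi1 in all 4 KO-iMOS libraries and in 3 WT-iMOS libraries, with no Bcl11a. In 5 of its 7 libraries the region 3 summits lay 14125 to 14135 bp from the start, and in the other two they lay at 14219 and 14251 bp. Whether either region is exonic or intronic cannot be told from the gene boundaries used here. Coverage was 0, 0 and 0 bp per Mb for Bcl11a at T2 and 0, 0 and 131 at T1. It was 129, 75.1 and 0 bp per Mb for Spi1 WT-iMOS at T2 and 174, 94.7 and 103 at T1. The difference of −74.1 bp per Mb between Bcl11a and Spi1 gave p = 0.0671 in the exact permutation test and an adjusted p of 0.552. The single Bcl11a peak came from T1 replicate 3, and without that library the difference was −95.9 bp per Mb. With every list shortened to its 2605 strongest peaks, Stat4 had no Bcl11a peak and no Spi1 WT-iMOS peak, and the difference in share of libraries between Bcl11a and Spi1 was 0, against −0.667 with the full lists. Region 2 then had no peak in any library, and region 3 had Spi1 in 1 KO-iMOS library, at T1.

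Jak1, the kinase shared by interferon, gp130 and common gamma chain receptors, had 5 regions, 2 of them in several libraries. Region 5, chr4:101264626-101265364, covered the promoter and had Bcl11a in 2 libraries (T1 replicates 2 and 3), Spi1 in 3 of 4 KO-iMOS libraries and Spi1 in 0 of 6 WT-iMOS libraries. Region 2, chr4:101172547-101173307, lay deep within the gene, 92296 bp downstream of the start, and overlapped no other annotated gene. It had no Bcl11a peak, Spi1 in 4 of 4 KO-iMOS libraries, and Spi1 in 3 of 3 WT-iMOS T2 libraries and 0 of 3 WT-iMOS T1 libraries. The summits lay 92286 and 92185 bp from the start in KO-iMOS T2 and 92246 and 92281 bp in KO-iMOS T1. In WT-iMOS T2 they lay at 92286, 92281 and 92281 bp. In 5 of the 7 libraries the summits thus fell within 5 bp of each other. The authors' fold enrichment was 13.0 and 6.10 in KO-iMOS T2, 9.95 and 9.01 in KO-iMOS T1, and 13.3, 13.8 and 10.9 in WT-iMOS T2. These peaks ranked between percentiles 68.6 and 98.5 of their lists, with a median of 93.9, the highest median of the 23 regions. Region 2 stayed in all 7 libraries when lists were shortened to equal length. Of the other 3 Jak1 regions, region 1, which overlaps the gene Raver2, and region 3 had Spi1 in 1 KO-iMOS library each, and region 4 had Spi1 in 1 WT-iMOS library.

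Jak1 region 2 was thus split between T2 and T1 in WT-iMOS, where the T2 lists held 12261, 6868 and 5068 peaks and the T1 lists 10841, 7120 and 6795. A region with Spi1 in every WT-iMOS T2 library and no WT-iMOS T1 library was found for 0.574% of 18288 Spi1 WT-iMOS regions. With KO-iMOS included, 0.230% of 19539 Spi1 regions had a peak in every KO-iMOS and every WT-iMOS T2 library and in no WT-iMOS T1 library. With 3 libraries against 3, the exact test cannot give a p below 0.1. Over all strata the region had a peak in 5 T2 and 2 T1 libraries, with p = 0.1 and an adjusted p of 1 in the stratified exact test. At T1 both KO-iMOS libraries and no WT-iMOS library had the peak, and at T2 all libraries of both genotypes had it.

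**Figure D3:**
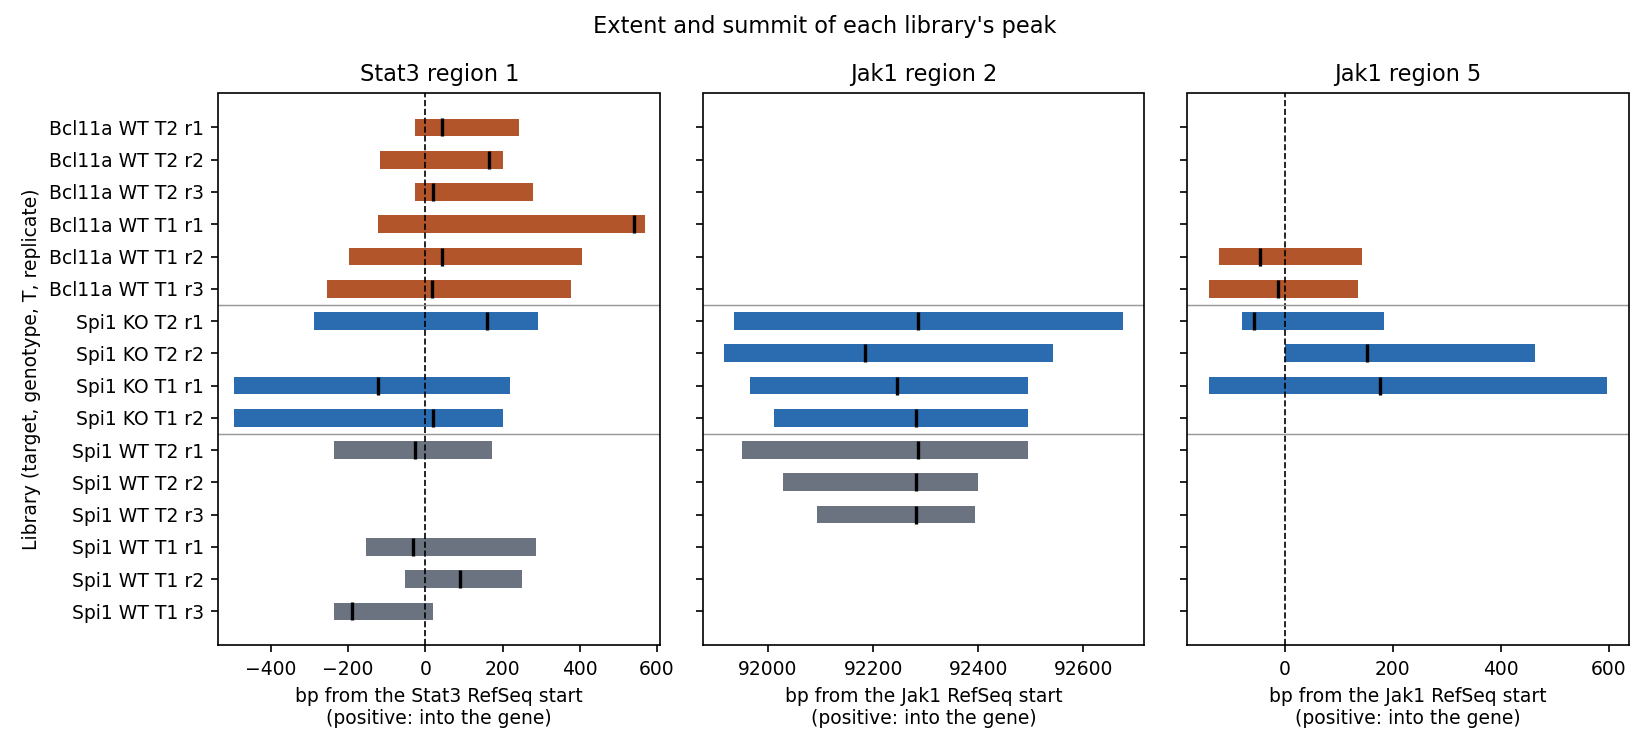
Bars show the extent and black ticks the summit of each library's peak (rows) at Stat3 region 1, Jak1 region 2 and Jak1 region 5, in bp from the RefSeq start of the gene (x axes, positive into the gene, dashed line at the start). Summits of Jak1 region 2 line up in 7 Spi1 libraries between 92185 and 92286 bp, whereas those of Stat3 are spread from −191 to 542 bp.

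Jak2, the kinase of the erythropoietin receptor, had a promoter region, chr19:29251266-29252261, with Bcl11a in 1 of 6 libraries, Spi1 in 3 of 4 KO-iMOS libraries and Spi1 in 0 of 6 WT-iMOS libraries. Its 4 peaks ranked between percentiles 20.7 and 52.1 of their lists. A region of 1 Spi1 WT-iMOS library was centred at −9990 bp. Jak3, the partner of the common gamma chain, had a promoter region, chr8:71676369-71676676, with Spi1 in 2 of 4 KO-iMOS libraries, both at T1, and none elsewhere. The other 2 Jak3 regions lay over the neighbouring gene Unc13a, in 1 library each.

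Stat5a and Stat5b, neighbours on chromosome 11 that relay many cytokines including erythropoietin, had no Spi1 in any WT-iMOS library. Region 1 of Stat5b, chr11:100814310-100815022, was within the gene and had Spi1 in 3 of 4 KO-iMOS libraries, 1 at T2 and 2 at T1. Region 2 of Stat5b, chr11:100826380-100827037, had Spi1 in 2 of 4, both at T1. Both ranked low in their lists, between percentiles 9.45 and 22.6. A region over a Stat5a promoter window, chr11:100860287-100860819, had Bcl11a in 1 library (T1 replicate 3) and Spi1 in 1 KO-iMOS library and fell within both loci. The other region shared by these loci had Spi1 in 1 KO-iMOS library. Stat6, which relays interleukin 4 and 13 signals, had a region just upstream, chr10:127642591-127642980, with Spi1 in 2 of 4 KO-iMOS libraries, Spi1 in 2 of 6 WT-iMOS libraries and no Bcl11a. Stat6 region 3, chr10:127643437-127643821, centred 643 bp inside the gene, had Bcl11a in 1 library and Spi1 in 1 KO-iMOS library, and Stat6 region 1 had Bcl11a in 1 library. Stat2, which relays type I interferon signals, had a single Spi1 peak in 1 KO-iMOS library, chr10:128270463-128270798, over its promoter and overlapping the gene Apof.

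Spi1 in KO-iMOS was then set against Spi1 in WT-iMOS over all 9 loci. The number of libraries with a peak was 4 of 4 in KO-iMOS against 4 of 6 in WT-iMOS at Jak1, 3 against 1 at Jak2, 3 against 0 at Jak3, 1 against 0 at Stat2 and 3 against 4 at Stat3. It was 4 against 5 at Stat4, 2 against 0 at Stat5a, 3 against 0 at Stat5b and 3 against 2 at Stat6. Within T2, the KO-iMOS libraries with a peak numbered 2 of 2 at Jak1 and Stat4 and 1 of 2 at the other 7 members, against 3 of 3 WT-iMOS libraries at Jak1, 2 at Stat4, 1 at Stat3 and Stat6 and 0 at the other 5. Within T1, they numbered 2 of 2 at Jak1, Jak2, Jak3, Stat3, Stat4, Stat5b and Stat6, 1 at Stat5a and 0 at Stat2, against 3 of 3 WT-iMOS libraries at Stat3 and Stat4, 1 at Jak1, Jak2 and Stat6 and 0 at the other 4. The share of libraries was higher in KO-iMOS at 9 of 9 members. At Stat3 the difference was 0.0833, and −0.05 without Spi1 WT-iMOS T2 replicate 2 or 3. The share of all loci with any difference toward KO-iMOS was not counted, here or within T2 and T1. These counts thus cannot be read as a trait of the members. The median difference was 0.417 against 0 over all genes, many of which had no peak. The mean difference was 0.426 at the members against 0.176 over all genes, and the median member locus was longer. The share of libraries was higher in KO-iMOS at 8 members and equal at 1 within T2, and higher at 6 and equal at 3 within T1. It was higher by at least 0.5 at 4 members (Stat5a, Stat5b, Jak2 and Jak3), and at 22.5% of all loci. Every Stat5a peak also lay within the Stat5b locus, so these 2 members are not separate counts. The share was lower by at least 0.5 at 0 members and at 2.12% of loci. No member, and 0% of the 21887 loci, passed an adjusted p of 0.05 by Fisher's exact test or by the permutation test of coverage. The smallest adjusted p over all genes was 0.264 by presence and 0.188 by coverage. Before adjustment Stat5b and Jak3 reached p = 0.0333 by Fisher's exact test, as did 8.36% of loci in this direction, and no member was under 0.05 by coverage. The Jak3 count included KO-iMOS T2 replicate 1, whose peak lay over the neighbouring gene Unc13a. The promoter region of Jak3 had 2 against 0 libraries, with p = 0.133 by Fisher's exact test. Over the gene body alone the difference in share at Jak3 was 0.5, against 0.75. Of the 10 member regions tested, 3 (Stat5b region 1, Jak2 region 2 and Jak1 region 5) had Spi1 in 3 KO-iMOS libraries and 0 WT-iMOS libraries, with p = 0.0333 and an adjusted p of 0.232 by Fisher's exact test. Within T2 the KO-iMOS libraries with these 3 peaks numbered 1 of 2 for Stat5b region 1, 1 of 2 for Jak2 region 2 and 2 of 2 for Jak1 region 5, and within T1 they numbered 2 of 2, 2 of 2 and 1 of 2. Of all 19539 regions, 19.3% had an unadjusted p under 0.05 in either direction, and 42.7% had a share higher by at least 0.5. That difference in share was reached by Stat5b regions 1 and 2, Jak2 region 2 and Jak1 regions 2 and 5. Jak3 region 3 and Stat4 region 3 reached it too.

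These differences moved with list length. With every list shortened to 2605 peaks, Stat5a, Stat5b, Jak2 and Jak3 had no Spi1 peak in either genotype, and the difference at these 4 loci was 0. At that length Stat5b region 1, Jak2 region 2 and Jak1 region 5 had no Spi1 peak left in any library. With all peaks the difference in share was 0.75 at each of these regions. With peaks of −log10 q of at least 5 alone it was 0.25 at Stat5b region 1, 0.75 at Jak2 region 2 and 0.5 at Jak1 region 5. At equal list length the Jak1 locus had Spi1 in all 4 KO-iMOS libraries and in 3 WT-iMOS libraries, a difference in share of 0.5, which 4.08% of loci reached at that length. Coverage per Mb at Jak1 was 167 and 320 bp at T2 and 163 and 76.6 bp at T1 in KO-iMOS, against 99.5, 134 and 156 bp at T2 and 0, 136 and 0 bp at T1 in WT-iMOS. The groups overlapped, and the difference of 94.2 bp per Mb had p = 0.133 in the exact permutation test and an adjusted p of 0.633. At Stat3 the means were 63.0 ± 46.1 bp per Mb in KO-iMOS (SD, n = 4) and 59.8 ± 47.0 bp per Mb in WT-iMOS (SD, n = 6), and p was 0.99 in the exact permutation test, with an adjusted p of 1.

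**Figure D4:**
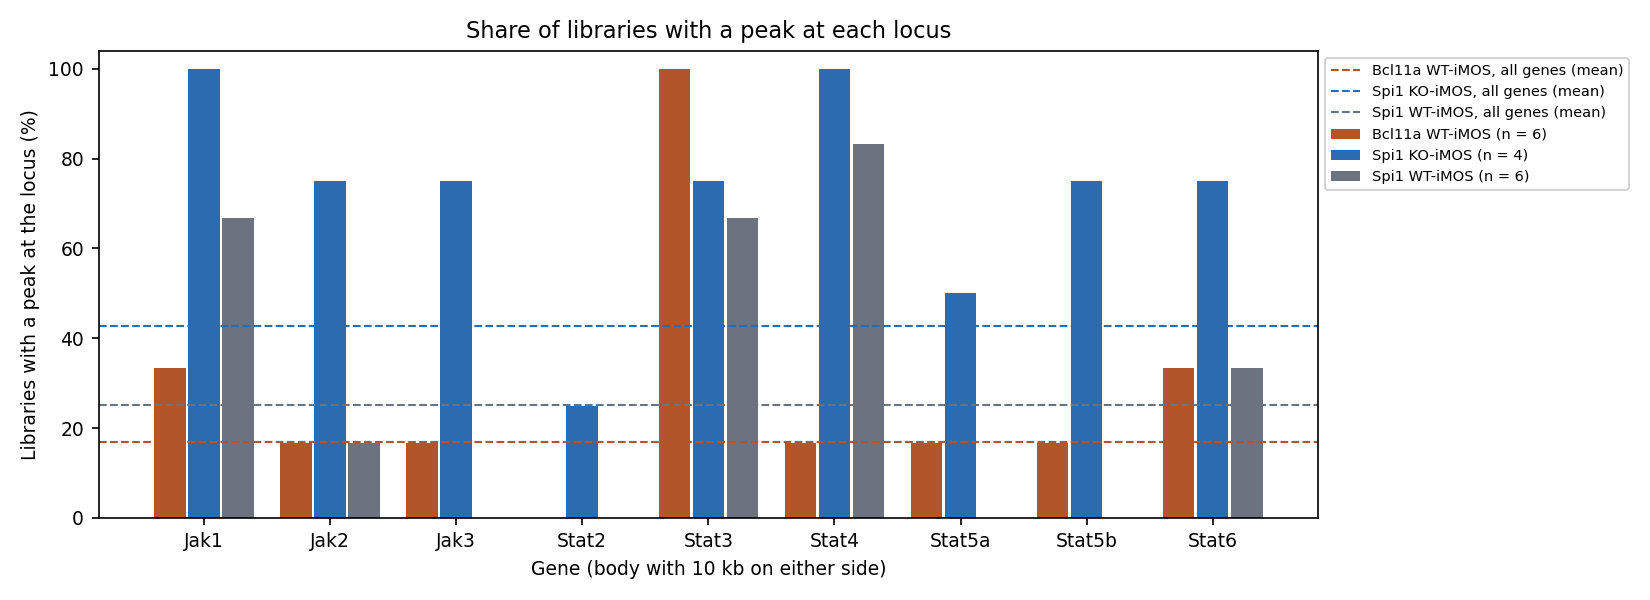
Bars give the percentage of libraries with a peak at each locus (y axis) for the 9 genes (x axis), by target and genotype, and dashed lines give the mean percentage over all genes in the same libraries. Stat3 reaches 100% for Bcl11a, and Jak1 and Stat4 reach 100% for Spi1 in KO-iMOS, where the line for all genes stands at 42.8%.

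Bcl11a was set against Spi1 within WT-iMOS, with the same 6 Spi1 libraries that serve in the genotype comparison. The share of libraries was higher for Bcl11a at 4 members (Stat3, Stat5a, Stat5b and Jak3), lower at 2 (Stat4 and Jak1) and equal at 3. At Stat5a, Stat5b and Jak3 this rested on Bcl11a T1 replicate 3 alone. Stat5a and Stat5b share that peak, and the Jak3 peak lay over Unc13a. The mean difference was −0.0185 at the members and −0.0836 over all genes, and loci with any difference were not counted. The share was higher for Bcl11a by at least 0.5 at 0 members and at 2.28% of loci. It was lower by at least 0.5 at 1 member (Stat4) and at 12.3% of loci. No member locus was called, and 0% of loci were, by presence or by coverage; Stat3 was the member with an unadjusted p under 0.05, by coverage, in a direction that 2.78% of loci shared. Among merged regions 640 of 13637, or 4.69%, were called, and none of the 6 member regions tested was. The smallest unadjusted p among those 6 was 0.182, for Stat4 region 3 and Jak1 region 2, each with no Bcl11a library and 3 Spi1 libraries.

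T2 was set against T1 within each target and genotype. The share of libraries, averaged over these strata, was higher at T2 at 1 member (Stat2), equal at 1 (Jak1) and lower at the other 7. Every Stat5a peak also lay within the Stat5b locus. The mean difference was −0.185 at the members and −0.0855 over all genes, and loci with any difference were not counted. The share was higher at T2 by at least 0.5 at 0 members and at 0.0868% of loci, and lower by as much at 0 members and at 2.72% of loci. No member locus was called and 0% of loci were, by presence or coverage in the stratified exact tests, and no member had an unadjusted p under the threshold. Stat3 had a peak in 5 of 8 T2 and 8 of 8 T1 libraries. Coverage at Stat3 averaged 105 ± 114 bp per Mb at T2 and 161 ± 113 bp per Mb at T1 (SD, n = 8 each). Each 8 pools both targets and both genotypes, so these SDs include the differences between them and are not a spread between replicates. The stratified exact permutation test gave p = 0.0742 and an adjusted p of 1. Stat4 region 2 had a peak in 1 of 8 T2 and 6 of 8 T1 libraries, with a stratified exact p of 0.0333 and an adjusted p of 1, and 1.01% of 21649 regions had an unadjusted p under 0.05. At equal list length that region had no peak in any library.

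The other genes of the pathway were counted in 3 lists. Of 24 cytokine receptor loci, 13 had Bcl11a in at least 2 WT-iMOS libraries, 18 had Spi1 in at least 2 KO-iMOS libraries and 15 had Spi1 in at least 2 WT-iMOS libraries, where all genes gave 25.3%, 49.8% and 33.5%. The share of Spi1 libraries was higher in KO-iMOS by at least 0.5 at 6 receptor loci and lower at 0, beside 22.5% and 2.12% of all loci. At Epor, the erythropoietin receptor gene, Spi1 was in 4 KO-iMOS libraries and 0 WT-iMOS libraries. Il6st, which encodes gp130, and Il10rb, an interleukin 10 receptor chain, each had 3 KO-iMOS and 0 WT-iMOS libraries. Of 21 regulator loci, 14, 17 and 13 had at least 2 libraries in the same order of groups. KO-iMOS was higher by at least 0.5 at 5 of them and lower at 0. The counts of 6 and 5 are near the share over all loci. The feedback inhibitor Socs2 had Spi1 in 4 KO-iMOS libraries and 0 WT-iMOS libraries, and the Stat inhibitor Pias3 in 3 and 0. Socs1, Socs4 and the adaptor gene Sh2b1 each had 3 KO-iMOS libraries and 1 WT-iMOS library, a tie. Of 18 target loci, 9, 11 and 9 had at least 2 libraries, and KO-iMOS was higher by at least 0.5 at 1 and lower at 1. The myeloid transcription factor gene Irf8 had Spi1 in 3 KO-iMOS libraries and 0 WT-iMOS libraries, whereas the cell cycle inhibitor Cdkn1a had 0 KO-iMOS and 3 WT-iMOS libraries. The survival factor Bcl2 and the kinase Pim2 each had 2 KO-iMOS libraries and 1 WT-iMOS library. In KO-iMOS the peaks at Epor and Socs2 were in 2 libraries at T2 and 2 at T1, those at Il6st, Il10rb, Pias3, Socs1, Socs4, Sh2b1 and Irf8 in 1 at T2 and 2 at T1, and those at Bcl2 and Pim2 in 1 at each. In WT-iMOS the peaks at Cdkn1a were in 1 library at T2 and 2 at T1, those at Socs1, Socs4 and Sh2b1 in 1 at T1, and those at Bcl2 and Pim2 in 1 at T2. None of these loci was called by Fisher's exact test.

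Over the 16 libraries, the genes with coverage per Mb most like that of Stat3 were Zfp516 (Pearson r = 0.929) and Ccdc57 (0.907). Those most like Stat4 were Ptpn18 (0.928) and Cbx2 (0.919), and those most like Jak1 were Hcfc2 (0.905) and Dynlt1b (0.888). The 16 points share target, genotype and list length, and the genes were picked as the highest of 5425 to 5441, so the values are descriptions.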

How the data were processed

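CUT&Tag libraries of sorted MPP3 cells were grouped by the target in the title and by the genotype label. Per the submitters' processing notes, the tools were Bowtie2, SAMtools and MACS2 and the build was mm10; no versions are given. The authors called peaks library by library and deposited, for each peak, the −log10 p and −log10 q at its summit. The score the authors deposited is 10 times the −log10 q, as an integer. The ratio the authors deposited is the fold enrichment at the summit against local background. All deposited −log10 q values were at least 2.00. Fold and −log10 p only described or ranked peaks within a list.

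Using Python 3.11.15, numpy 2.4.6, scipy 1.17.1 and pandas 2.3.3, 130097 of 131939 peaks, those on assembled chromosomes, were merged when sharing 1 bp. Starts and promoter sequences are RefSeq's on GRCm38.p6, the assembly of mm10; all 9 genes matched. Tests were Fisher's exact test (stratified for T) and exact permutation, two-sided, with Benjamini-Hochberg adjustment over all genes or regions. They were run on simulated data in which planted genes followed the groups exactly. Other genes had the same peak rate in every library, so the simulation does not check the tests where list lengths differ. No pair of lists shared more than 60 identical intervals. All 9 genes and every region in at least 2 libraries were named; per pathway list, the 4 genes with the largest genotype difference were, with a tie given, except 1 receptor gene that is not reported here. The members and lists were chosen with earlier results of these data known. The number of peaks in a list limits precision.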

Additional observations from a re-analysis of the deposited data

Results flagged for a closer look

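Coverage per Mb was examined for libraries apart from the rest of their group in 22 groups of 4 or 6 libraries with any peak, and 9 had one. The rule flags about 1 in 20 groups by chance for values without ties, so that rate cannot be set against the 9. A group with a peak in 1 library and 0 in the others is always flagged, and most of the 9 are of this kind. In 5 groups the library was Bcl11a T1 replicate 3, with 150 bp per Mb at Jak2, 67.9 at Jak3, 131 at Stat4, and 123 at Stat5a and at Stat5b, where the value is the same shared peak. Bcl11a T2 replicate 2 stood at 290 bp per Mb at Stat6. Spi1 KO-iMOS T2 replicate 1 stood at 44.0 bp per Mb at Stat2, and Spi1 KO-iMOS T2 replicate 2 at 0 bp per Mb at Stat5b, below the other 3 libraries. Spi1 WT-iMOS T1 replicate 1 stood at 38.3 bp per Mb at Jak2.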

How the results depend on the processing

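Of the Jak and Stat loci and regions, Stat3 region 1 was the one called under any alternative run: with lists of equal length, Bcl11a against Spi1 gave an adjusted p of 0.0235 by Fisher's exact test, against 0.837 with the full lists. The count of locus and library pairs with a peak, 57 in all, was 18 at equal list length and 48 to 56 without any 1 library. The 640 regions that differed between Bcl11a and Spi1 over the whole series were 648 to 881 without any 1 library. They were 0 within T strata, within T1, within T2 and when regions of 1 library were tested too. Within T1 or T2 alone, 3 libraries against 3 cannot give a p below 0.1 in the exact test, so no call was possible there. Correlations of the deviations of same-numbered libraries were −0.248 to 0.0892 for Bcl11a with Spi1 (0 of 6 pairs over 0.1), 0.0445 to 0.141 for KO-iMOS with WT-iMOS (3 of 4) and −0.00775 to 0.397 for T2 with T1 (4 of 8, all of Spi1). Each KO-iMOS group has 2 libraries, so its 2 pairs of T2 with T1 hold the same value, 0.210, and are not separate. Since not every pair was over 0.1 in any comparison, the numbers were not taken to pair libraries. With the replicate number as a block these 640 regions were 0, and no other count of calls moved from 0. The cause was not tested.

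Several differences in coverage per Mb changed sign, each with an adjusted p of 1 in the exact permutation test. KO-iMOS minus WT-iMOS at Stat3 was −29.7 with summits widened by 250 bp, −12.2 over the gene body, −3.65 with the replicate block, −6.67 within T1 and −12.5 to 24.2 without any 1 library. Bcl11a minus Spi1 at Stat6 was −8.52 with −log10 q of at least 5 and −3.30 to 54.6 without any 1 library. At Jak2 it was −6.38 to 24.9 without any 1 library, and at Jak1 17.9 within T1. T2 minus T1 was 3.59 at Jak3 with −log10 q of at least 5. Over the Spi1 strata alone it was 12.9 at Stat5a and −15.7 at Stat6. Without any 1 library it was −18.9 to 8.64 at Stat5a and −18.6 to 29.7 at Stat6. Differences in share of libraries also changed sign. KO-iMOS minus WT-iMOS at Stat3 and its region 1 was −0.05 without Spi1 WT-iMOS T2 replicate 2 or 3, against 0.0833. Bcl11a minus Spi1 at Jak1 was 0.333 within T1, against −0.333. T2 minus T1 was 0.111 at Stat6 and −0.167 at Stat4 region 3, both with −log10 q of at least 5 and at equal list length. It was 0.111 at Stat6 region 3 at equal list length and without Spi1 KO-iMOS T1 replicate 1. At Jak1 region 5 it was 0.111 without that library and 0.25 over the Spi1 strata. At Stat5a it was 0.0556 without that library or Spi1 KO-iMOS T2 replicate 2. All other differences kept their sign or were 0. Lists without read counts cannot tell a missing peak from a shallow library.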
